A study of Mus musculus with 32 samples.

Results

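The annexins and S100 proteins described here are 10 genes of YUMM3.3 mouse melanoma cells: Anxa1, Anxa2, Anxa3, Anxa5, Anxa6, S100a4, S100a6, S100a10, S100a11 and S100a13. They were taken by name, as the rows of the deposited count table whose Ensembl identifier maps to these symbols, and all 10 were found among its 12451 genes. YUMM3.3 is a Braf mutant line grown from a mouse melanoma. Its cultures received Activin-A, a secreted relative of TGF-β, the interferon IFN-γ or the pair, and the question was whether either factor alters what the other does to tumor cell transcripts. These were counted by BRB-seq, in which the cDNA of each well receives a barcode, the wells are pooled into 1 library, and reads are counted at the 3′ ends of transcripts.

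The 32 wells formed 8 groups of 4. Cells were left untreated (NT), or were given 40 ng/ml Activin-A (ActA), 20 ng/ml IFN-γ (IFNy), or both factors at these doses, and each of the 4 conditions was harvested at 4 hrs and at 12 hrs. The sources differ on the dose of Activin-A, and that of the sample labels and methods is the one given. All wells held the same line without a genetic change between groups, so that the comparisons concern added recombinant protein in 1 culture model. Wells of a group are replicates of the treatment, and since nothing says that they came from independent cultures, p-values measure the spread between wells, which may be technical.

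Annexins are soluble proteins that bind acidic phospholipids when calcium rises, and through their repeated core they bridge, curve and seal membranes. S100 proteins are small EF-hand calcium sensors that work as dimers and act by docking onto target proteins, several annexins among them. Members of both families are abundant in mesenchymal and migratory cells, and S100 proteins have long served as markers in melanoma.

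Among the annexins, Anxa1 (ENSMUSG00000024659, chromosome 19) encodes a glucocorticoid-responsive mediator that acts on formyl peptide receptors. Anxa2 (ENSMUSG00000032231, chromosome 9) encodes the annexin that assembles with S100A10 and serves as a surface platform for plasminogen activation. Anxa3 (ENSMUSG00000029484, chromosome 5) is known from granules of neutrophils. Anxa5 (ENSMUSG00000027712, chromosome 3) encodes the phosphatidylserine-binding protein used to stain dying cells, and Anxa6 (ENSMUSG00000018340, chromosome 11) a larger annexin of endosomes and the plasma membrane. Among the S100 genes, all on chromosome 3, S100a4 (ENSMUSG00000001020) encodes a metastasis-associated protein that binds non-muscle myosin, and S100a6 (ENSMUSG00000001025) encodes calcyclin. S100a10 (ENSMUSG00000041959) encodes the annexin A2 partner, which has lost calcium binding. S100a11 (ENSMUSG00000027907) encodes a partner of annexin A1, and S100a13 (ENSMUSG00000042312) a protein that carries FGF1 out of cells by a non-classical route. By RefSeq's order of coding genes, 4 lie between S100a13 and S100a4, 1 lies between S100a4 and S100a6, 59 lie between S100a6 and S100a11, and 0 between S100a11 and S100a10.

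The stretches just upstream of 3 members called with Activin-A at 12 hrs, Anxa5 as higher and S100a6 and S100a13 as lower, are shown so that their letters can be searched for the elements that Smad and AP-1 factors recognise. RefSeq's promoter table (build GRCm38.p6) held 7 of the 10 members, without Anxa3, Anxa6 and S100a10. Each line gives the 250 bases that end just before the annotated start, 5′ to 3′ on the strand of the gene, with matches to CAGAC, the Smad half-site, on either strand in capitals (GTCTG is its reverse complement).
Anxa5, chr3:36475888-36476137, minus strand: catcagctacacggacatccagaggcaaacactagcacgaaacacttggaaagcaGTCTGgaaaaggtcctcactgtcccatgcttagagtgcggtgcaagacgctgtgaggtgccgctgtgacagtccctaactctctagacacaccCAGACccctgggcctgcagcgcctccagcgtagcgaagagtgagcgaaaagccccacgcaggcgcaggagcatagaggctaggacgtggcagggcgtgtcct
S100a6, chr3:90612644-90612893, plus strand: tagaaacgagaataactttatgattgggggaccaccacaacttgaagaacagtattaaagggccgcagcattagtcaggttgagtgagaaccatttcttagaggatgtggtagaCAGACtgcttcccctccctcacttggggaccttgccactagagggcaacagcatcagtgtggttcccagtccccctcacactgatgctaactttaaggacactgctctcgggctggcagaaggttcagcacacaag
S100a13, chr3:90514185-90514434, plus strand: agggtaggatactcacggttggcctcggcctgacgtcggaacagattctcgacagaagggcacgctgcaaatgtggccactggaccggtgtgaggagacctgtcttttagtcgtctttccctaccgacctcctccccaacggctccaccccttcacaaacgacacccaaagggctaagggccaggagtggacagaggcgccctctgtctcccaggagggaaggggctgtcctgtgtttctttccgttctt

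The window of Anxa5 held 2 such matches, which begin 195 and 102 bases before the start, that of S100a6 held 1, beginning 136 bases before it, and that of S100a13 held 0. S100a4 also had 1 match, and the windows of Anxa1, Anxa2 and S100a11 had 0. Of all 32851 promoter windows of this length, 42.2% held CAGAC. The AP-1 letters TGANTCA, which do not overlap CAGAC in these windows, occurred 2 times upstream of S100a11 and 1 time upstream of Anxa2, and in 6.75% of all windows. These matches describe letters only.

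Totals ranged from 654539 to 1455074 counts per well with a median of 988019.5. Levels are given as CPM, the counts of a gene relative to the total of its well after scaling by edgeR's TMM method. Relative to the totals before that scaling, 3 counts correspond to between 2.06 and 4.58 CPM. No member had fewer than 51 counts in a well, and together the members took between 0.876% and 1.2% of a well's counts. Of 48 pairs of wells within groups, the pairs that include replicate 1 of Activin-A at 4 hrs differed by at least 2.60 chi-square units per gene and all other pairs by at most 1.59, so this well stood apart, and the effects of Activin-A alone at 4 hrs are given with and without it. Of 8 melanocyte lineage markers, 7 were above 10 CPM in some group and S100b was not, with a summed level per group between 366 and 407 CPM. Mitf was low, with a mean of 10.2 CPM in untreated wells at 4 hrs and 6.56 to 7.50 CPM with treatment at that time. At 12 hrs 6 of the 8 passed the filter on low counts. Markers of fibroblasts (4 of 6 in the table, summed 44.4 to 71.3 CPM), of immune cells (3 of 7, 14.5 to 20.2 CPM), of keratinocytes (1 of 3, 4.67 to 9.23 CPM) and of endothelium (0 of 3) were low. IFN-γ raised Irf1, and Activin-A raised Pmepa1 and Ccn2, at both times.

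**Figure D1:**
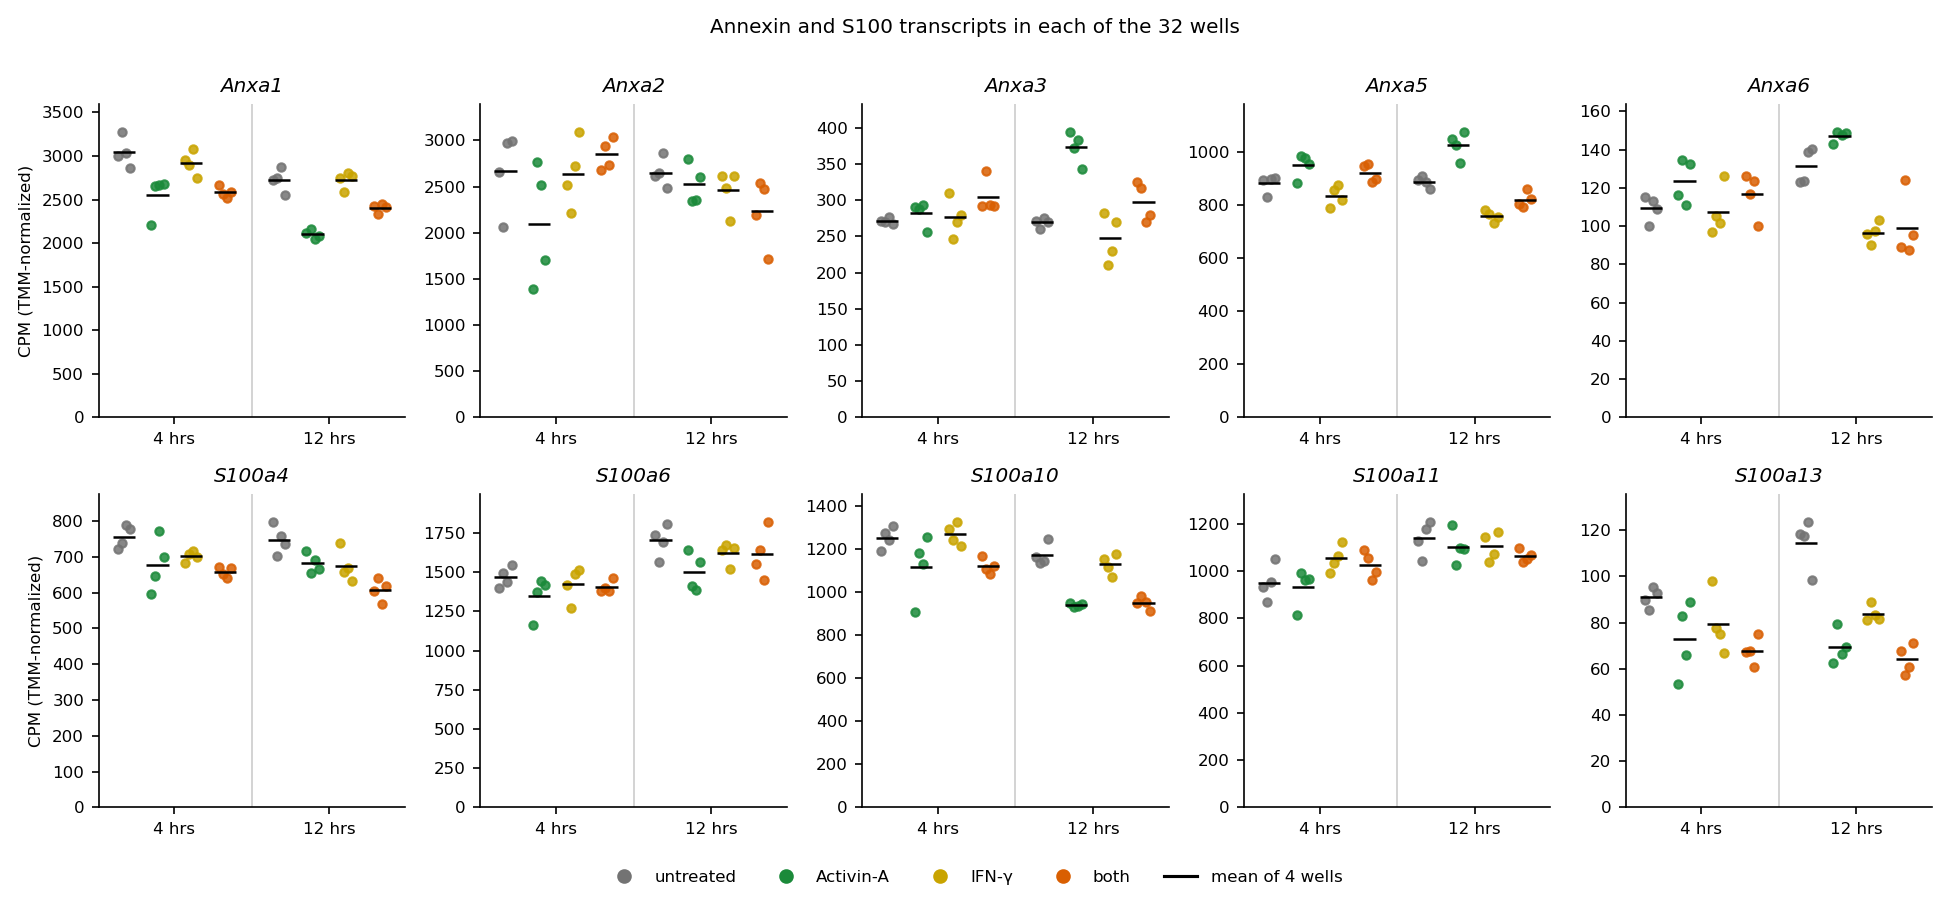
Level of each member in CPM (vertical axes from 0) in every well at 4 hrs and 12 hrs, colored by treatment, with bars at the mean of 4 wells. At 12 hrs Anxa1, S100a10 and S100a13 sit lower and Anxa3 higher with Activin-A (green) than without (grey), and Anxa5 and Anxa6 sit lower with IFN-γ (yellow), whereas the Anxa2 wells scatter within groups.

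Every comparison was fitted over all expressed genes with the quasi-likelihood test of edgeR, and a gene was called where its p, adjusted over all genes tested after Benjamini and Hochberg, was under 0.05. Changes are log2 fold changes (log2FC) with their standard error (SE). The test draws the spread of each gene toward that of other genes. SE and p may therefore understate the scatter of a variable gene such as Anxa2. The members passed the filter on low counts at both times, and their SEs were small: at 12 hrs with Activin-A alone the median SE was 0.055 for members and 0.165 for all genes tested. Small changes can therefore be called in most of these genes that would not be in a rarer one. S100a13 and Anxa6, the members with the fewest counts, were less precise, with SEs of 0.114 and 0.096 in that comparison. Because wells were measured in bulk, fewer cells that make a transcript and less of it per cell cannot be told apart.

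Activin-A alone for 12 hrs changed 6 of the 10 members. Anxa3 and Anxa5 rose, whereas Anxa1, S100a6, S100a10 and S100a13 fell. In this comparison 2.41% of all genes tested were called, 1.25% as higher and 1.16% as lower, and of the 2587 genes with a mean level in the range of the members (80.3 to 2632 CPM) 5.26% were called. The members were chosen with earlier results of these data known. Here and below, an excess of calls over such shares therefore cannot be read as a result about the set. The median log2FC was -0.10 over the members and -0.0031 over all genes tested.

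S100a13 showed the largest of these changes. Untreated wells at 12 hrs had 118, 117, 123 and 98.2 CPM, and wells with Activin-A had 62.7, 79.3, 66.2 and 69.4 CPM. All 4 treated wells thus lay below all 4 untreated ones. The mean dropped from 114 ± 11 to 69.4 ± 7.17 CPM (SD, n = 4), with a log2FC of -0.73 (SE 0.114, adjusted p = 1.19e-06).

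Anxa1, the formyl peptide receptor ligand, had 2722, 2749, 2877 and 2555 CPM in untreated wells and 2119, 2159, 2045 and 2080.2 CPM in treated ones. The groups did not overlap, and the treated wells lay close together. Its mean fell from 2725 ± 132 to 2101 ± 49.3 CPM (SD, n = 4), a log2FC of -0.38 (SE 0.046, adjusted p = 3.91e-10). S100a10, the partner of annexin A2, had 1159.6, 1132, 1144 and 1244 CPM in untreated and 949, 928, 936 and 945 CPM in treated wells. Again the groups were apart, and the log2FC was -0.32 (SE 0.051, adjusted p = 3.01e-06).

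Anxa3 moved in the opposite direction. Its wells read 271, 261, 275 and 270.1 CPM without and 394, 372, 383 and 343 CPM with Activin-A, again without overlap. The mean rose from 269 ± 6.11 to 373 ± 21.7 CPM (SD, n = 4), a log2FC of 0.47 (SE 0.073, adjusted p = 9.56e-07). Anxa5 rose less, from 896, 911, 889.5 and 864 CPM to 1052, 1029, 959.9 and 1075 CPM. Its lowest treated well was above its highest untreated one, with a log2FC of 0.20 (SE 0.052, adjusted p = 0.00996). Without replicate 4 of the treated wells the adjusted p of Anxa5 was 0.0545.

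The call of S100a6, calcyclin, was the weakest. Untreated wells had 1739, 1566, 1695 and 1809.8 CPM and treated wells 1642, 1411, 1389 and 1566 CPM, so that the groups overlapped. The log2FC was -0.18 (SE 0.053, adjusted p = 0.0400). The call of S100a6 was lost in 5 of 8 leave-one-out fits (without untreated replicate 1, 3 or 4 or treated replicate 2 or 3), where its adjusted p reached 0.219, with DESeq2's Wald test (adjusted p = 0.201) and with all 32 wells in the fit (adjusted p = 0.117).

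The other 4 members did not pass the test. Anxa6 read 123, 124, 139 and 140.3 CPM in untreated and 143, 149, 148 and 149 CPM in treated wells, which do not overlap, with a log2FC of 0.17 (SE 0.096, adjusted p = 0.530). S100a4, the myosin-binding member, had 748 ± 39.1 CPM without and 682 ± 26.4 CPM with Activin-A (SD, n = 4), a log2FC of -0.14 (SE 0.057, adjusted p = 0.279). The log2FC was -0.072 for Anxa2 (SE 0.059, adjusted p = 0.712) and -0.046 for S100a11 (SE 0.053, adjusted p = 0.833).

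**Figure D2:**
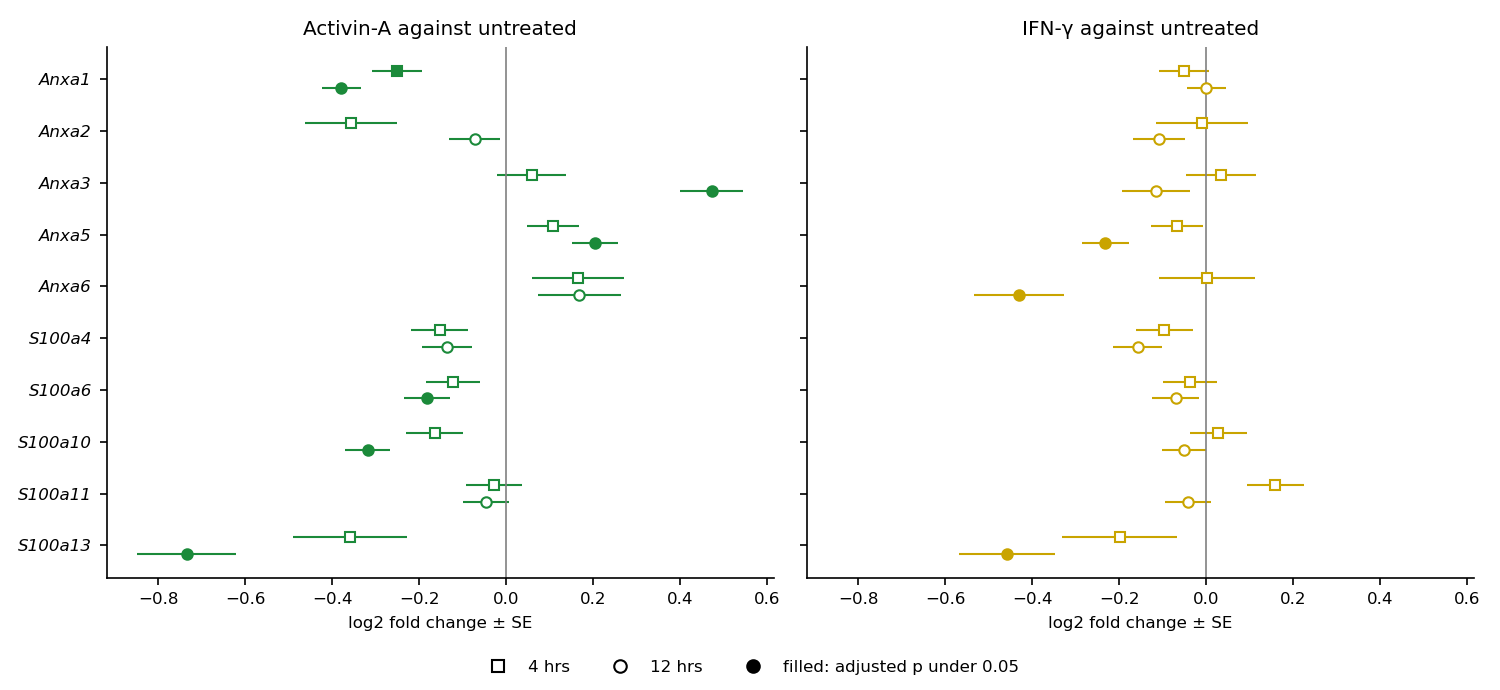
log2 fold change with its standard error (horizontal axes) of each member for Activin-A (left) and IFN-γ (right) against untreated wells, at 4 hrs (squares) and 12 hrs (circles), filled where the adjusted p was under 0.05. The Activin-A panel has 6 filled circles on both sides of 0, and the IFN-γ panel has 3, all below 0.

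At 4 hrs the response to Activin-A was limited to 1 call. Anxa1 had 2996, 3269, 3034 and 2864 CPM in untreated wells and 2203, 2657, 2668 and 2684 CPM with Activin-A. The groups did not overlap, although replicate 1 of the treated wells, the well that stood apart, was the lowest. The log2FC was -0.25 (SE 0.057, adjusted p = 0.00620), where 1.64% of all genes were called and 0.591% were called as lower. Without that well the log2FC of Anxa1 was -0.19 (adjusted p = 0.00993), and without replicate 2 of the untreated wells the adjusted p was 0.0749.

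Anxa2 had 2662, 2058, 2971 and 2992 CPM in untreated and 1395, 2761, 2516 and 1709 CPM in treated wells at 4 hrs. These groups overlapped widely, and the log2FC was -0.36 (SE 0.105, adjusted p = 0.0664). Leaving out the well that stood apart gave -0.21 for Anxa2 (adjusted p = 0.218), whereas leaving out treated replicate 2 gave -0.51 (adjusted p = 0.00145). Anxa2 also passed without treated replicate 3 (adjusted p = 0.00753) and without untreated replicate 2 (adjusted p = 0.0110). S100a13 had 89.7, 85.6, 95.5 and 92.9 CPM in untreated and 53.4, 82.6, 66.1 and 88.9 CPM in treated wells, a log2FC of -0.36 (SE 0.131, adjusted p = 0.197), or -0.21 without the well that stood apart (adjusted p = 0.631).

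The members called at 12 hrs other than Anxa1 had log2FC at 4 hrs of 0.059 (Anxa3), 0.11 (Anxa5), -0.12 (S100a6), -0.16 (S100a10) and -0.36 (S100a13). Without the well that stood apart these were 0.036 for Anxa3, 0.14 for Anxa5, -0.057 for S100a6 and -0.074 for S100a10, with adjusted p between 0.282 and 0.940. With and without that well the log2FC at 4 hrs was -0.15 and -0.090 for S100a4, -0.028 and 0.032 for S100a11, and 0.17 and 0.19 for Anxa6, none of which passed the test. The difference between both times was tested directly for the effect of Activin-A, with 0 of 10 members called by edgeR and 0 by DESeq2. Of all genes 0.0214% were called there. At an unadjusted p under 0.05 there were 3 members and 6.10% of all genes, with Anxa3 the lowest (log2FC 0.42 at 12 hrs minus 4 hrs, SE 0.109, adjusted p = 0.246, or 0.43 with an adjusted p of 0.158 without the well that stood apart). A difference between the times is thus not shown for any member.

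IFN-γ alone for 12 hrs lowered 3 members, Anxa5, Anxa6 and S100a13, and raised 0. Of all genes 9.25% were called, 2.82% as lower, and 15.5% of genes in the members' range of levels were called in either direction. The median log2FC was -0.11 over the members and -0.0098 over all genes tested. This comparison and that of Activin-A alone share their untreated wells. The summed level of the fibroblast markers was 56.4 to 70.8 CPM in untreated wells and 49.1 to 55.1 CPM with IFN-γ. Of these markers 0 of 2 tested were called, and the part of this in the members' values was not tested.

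Anxa6, the endosomal annexin, read 95.8, 89.9, 97.2 and 103 CPM with IFN-γ, below the 123 to 140.3 CPM of the untreated wells. The mean dropped from 131 ± 9.38 to 96.5 ± 5.41 CPM (SD, n = 4), a log2FC of -0.43 (SE 0.104, adjusted p = 0.00153). S100a13 read 81.3, 88.9, 83.2 and 81.5 CPM, again below all untreated wells (98.2 to 123 CPM), with a log2FC of -0.46 (SE 0.111, adjusted p = 0.00146). Anxa5 read 782, 768, 734 and 755 CPM, below the 864 to 911 CPM of untreated wells, with a log2FC of -0.23 (SE 0.054, adjusted p = 0.000809). These 3 calls passed in all alternatives run.

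S100a4 had 674 ± 44.8 CPM with IFN-γ (SD, n = 4), a log2FC of -0.16 (SE 0.057, adjusted p = 0.0676) that passed without TMM scaling (-0.20, adjusted p = 0.00619), without untreated replicate 2 (adjusted p = 0.0312) and without treated replicate 1 (adjusted p = 0.0204). Anxa1 stood at 2729 ± 96.1 CPM with IFN-γ and 2725 ± 132 CPM without (SD, n = 4), a log2FC of -0.00015 (SE 0.045). The remaining 5 members had log2FC between -0.12 (Anxa3) and -0.042 (S100a11).

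At 4 hrs IFN-γ alone changed 0 of 10 members by edgeR and 0 by DESeq2, where 5.06% of all genes were called. At an unadjusted p under 0.05 there was 1 member, S100a11 (log2FC 0.16, SE 0.065, adjusted p = 0.213), and 13.3% of all genes. The log2FC at 4 hrs was -0.067 for Anxa5, 0.0014 for Anxa6 and -0.20 for S100a13. The effect of IFN-γ at 12 hrs minus that at 4 hrs was called for 0 members by both tools and for 0.579% of all genes. With an unadjusted p under 0.05 there were 7.38% of all genes and 2 members, Anxa6 (log2FC -0.42, SE 0.151, adjusted p = 0.362) and S100a11 (log2FC -0.19, SE 0.085, adjusted p = 0.586).

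Sorted only by their calls, the members fell into several patterns at 12 hrs. S100a13 was lower with either factor, Anxa5 was higher with Activin-A and lower with IFN-γ, Anxa1, S100a6 and S100a10 were lower with Activin-A, Anxa3 was higher with it, and Anxa6 was lower with IFN-γ. Anxa2, S100a4 and S100a11 passed with neither. The call of S100a6 was the weakest of these. Activin-A and IFN-γ were not tested against each other, so a call with a single factor is not shown to be particular to it.

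Activin-A was next compared on top of IFN-γ. With both factors for 12 hrs against IFN-γ alone, Anxa1 and S100a10 fell and 0 members rose, where 1.03% of all genes were called, 0.568% as lower, and 2.47% of genes in the members' range. S100a10 read 948, 982, 953 and 910.1 CPM with both factors and 1151, 1116, 1071 and 1174 CPM with IFN-γ. The groups did not overlap, and the log2FC was -0.25 (SE 0.052, adjusted p = 0.00136). Anxa1 read 2425, 2329, 2453 and 2419 CPM with both factors and 2746, 2589, 2805 and 2775 CPM with IFN-γ, also without overlap, with a log2FC of -0.18 (SE 0.046, adjusted p = 0.0199). For Anxa1 the adjusted p was 0.103, 0.0808 and 0.0815 without IFN-γ replicate 3, IFN-γ replicate 4 or replicate 2 of both factors, and 0.0857 with all 32 wells in the fit.

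Anxa3 had 298 ± 27.2 CPM with both factors and 249 ± 33.5 CPM with IFN-γ (SD, n = 4), a log2FC of 0.26 (SE 0.079, adjusted p = 0.0955, or 0.0398 without IFN-γ replicate 1). S100a13 had 67.8, 57.5, 60.8 and 71.1 CPM with both factors, below the 81.3 to 88.9 CPM of IFN-γ alone, with a log2FC of -0.38 (SE 0.129, adjusted p = 0.167). The wells of Anxa5 did not overlap either, at 804, 796, 861 and 823 CPM against 734 to 782 CPM, with a log2FC of 0.11 (SE 0.055, adjusted p = 0.454).

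Whether the effect of Activin-A differs with IFN-γ present is asked by the interaction, its effect with IFN-γ minus its effect without. At 12 hrs this was called for 0 of 10 members by edgeR and by DESeq2, and for 0.0111% of all genes. Unadjusted p was under 0.05 for 6.82% of all genes and for 3 members: Anxa1 (0.20, SE 0.065, adjusted p = 0.373), S100a6 (0.18, SE 0.076, adjusted p = 0.647) and S100a13 (0.35, SE 0.174, adjusted p = 0.713). For these 3 the value has the sign opposite to that of Activin-A alone. That effect is subtracted in the interaction, so error in it favors an opposite sign, and nothing is read from the signs. A loss of a call under IFN-γ, as for Anxa3, Anxa5, S100a6 and S100a13, was thus not shown to be a different response.

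**Figure D3:**
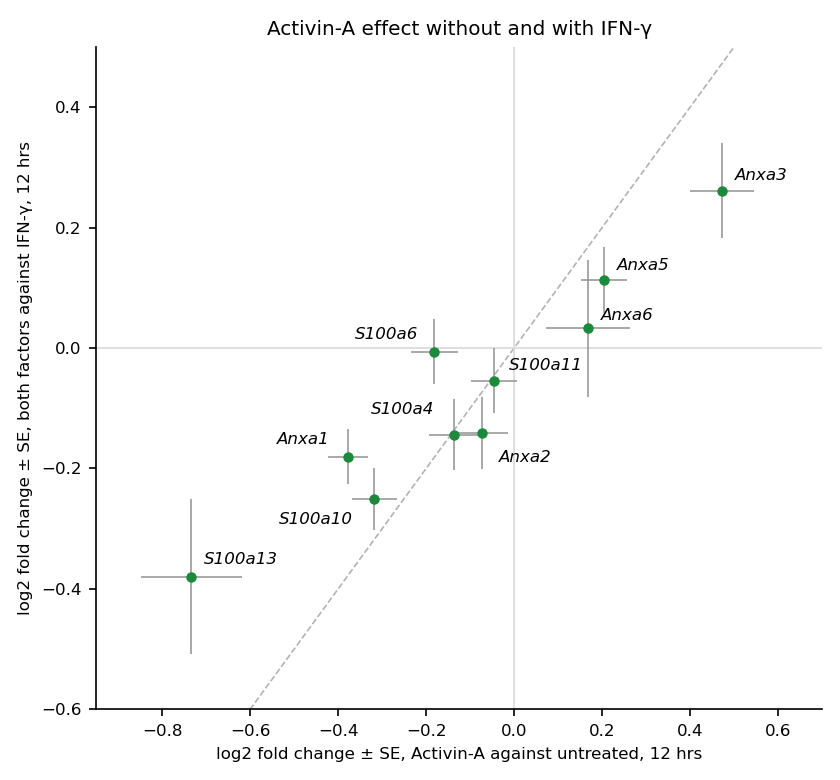
Effect of Activin-A on each member at 12 hrs without IFN-γ (horizontal, log2 fold change with SE) and with IFN-γ (vertical), where the dashed line marks equal effects. S100a13, Anxa1, S100a10 and S100a6 are below 0 on both axes, and Anxa3, Anxa5 and Anxa6 are above 0 on both. All of these sit nearer to 0 on the vertical axis. Anxa2, S100a4 and S100a11 are below 0 on both axes and sit farther from 0 on the vertical one.

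At 4 hrs both factors against IFN-γ alone gave 0 calls among the members by edgeR and 0 by DESeq2, where 0.810% of all genes were called. At an unadjusted p under 0.05 were Anxa1 (log2FC -0.18, SE 0.057, adjusted p = 0.150), S100a10 (-0.18, SE 0.066, adjusted p = 0.261) and Anxa5 (0.14, SE 0.060, adjusted p = 0.395), which is 3 of 10, against 9.30% of all genes. The interaction at 4 hrs was called for 0 members by both tools and for 0% of all genes, and 5.53% of all genes and 1 member, Anxa2, had an unadjusted p under 0.05 (0.47, SE 0.149, adjusted p = 0.801, or 0.32 with an adjusted p of 0.527 without the well that stood apart). The effect of Activin-A under IFN-γ at 12 hrs minus that at 4 hrs was called for 0 members by both tools and 0.0964% of all genes, and an unadjusted p under 0.05 was had by 0 members and 6.67% of all genes.

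IFN-γ on top of Activin-A for 12 hrs changed 5 members. Anxa2, Anxa3, Anxa5 and Anxa6 fell and Anxa1 rose, against Activin-A alone, where 9.62% of all genes were called, 6.18% as higher and 3.44% as lower, and 15.8% of genes in the members' range. Of the fibroblast markers, 4 of 6 in the table, Col1a1, a collagen chain, was lower too (48.8 ± 7.39 to 28.3 ± 3.45 CPM, SD, n = 4, log2FC -0.80, adjusted p = 0.000433), and their summed level was 63.2 to 83.8 CPM with Activin-A and 40.8 to 50.7 CPM with both factors. The part of this in the members' values was not tested. Anxa6 had 89.2, 124, 87.4 and 95.6 CPM with both factors, all below the 143 to 149 CPM of Activin-A alone, with a log2FC of -0.57 (SE 0.104, adjusted p = 1.35e-05). Anxa5 fell from 1029 ± 49.9 to 821 ± 28.9 CPM (SD, n = 4), without overlap, with a log2FC of -0.32 (SE 0.053, adjusted p = 9.01e-07).

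Anxa3 read 325, 317, 269.9 and 279.7 CPM with both factors, below the 343 to 394 CPM of Activin-A alone. The log2FC was -0.33 (SE 0.074, adjusted p = 0.000508). Anxa1 rose from 2101 ± 49.3 to 2406 ± 53.9 CPM (SD, n = 4), again without overlap, with a log2FC of 0.20 (SE 0.046, adjusted p = 0.000993).

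The call of Anxa2 rested on single wells. It read 2192, 2540.5, 2478 and 1711 CPM with both factors and 2801, 2346, 2350.2 and 2601 CPM with Activin-A, which overlap, with a log2FC of -0.18 (SE 0.060, adjusted p = 0.0423). Without replicate 4 of both factors the log2FC of Anxa2 was -0.070 (adjusted p = 0.60), the call was lost without replicate 1 of both factors or replicate 1 or 4 of Activin-A, and the adjusted p of Anxa2 was 0.492 with DESeq2, 0.325 with all 32 wells in the fit and 0.0523 with at least 10 counts in every well. S100a4 also had wells apart, at 569 to 640.2 CPM with both factors and 656 to 715 CPM with Activin-A, with a log2FC of -0.17 (SE 0.059, adjusted p = 0.0583, or 0.0411 without replicate 2 of both factors).

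At 4 hrs the same comparison called Anxa2 alone, as higher, where 6.07% of all genes were called and 4.41% as higher. With both factors Anxa2 read 2683, 2934, 2738 and 3033 CPM, which overlaps the 1395 to 2761 CPM of Activin-A alone. The log2FC was 0.46 (SE 0.105, adjusted p = 0.00188), and DESeq2 gave 0.44 (adjusted p = 0.281). Anxa2 scattered between wells more than most genes of its range of levels (pooled SD of log2 CPM 0.233, percentile 98.1). Its SE and p from edgeR may understate that scatter, and what set the tools apart was not tested. Without the well that stood apart the log2FC of Anxa2 was 0.30 (adjusted p = 0.00415).

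In order of level at 12 hrs, Anxa5 stood at 1029 CPM with Activin-A, 890.2 CPM untreated, 821 CPM with both factors and 759.8 CPM with IFN-γ. Of the neighbours in this order, Activin-A and untreated wells differed by the test, both factors and IFN-γ did not pass it (adjusted p = 0.454), and untreated wells against both factors were not tested. S100a13 stood at 114 CPM untreated, 83.7 CPM with IFN-γ, 69.4 CPM with Activin-A and 64.3 CPM with both factors. IFN-γ and Activin-A, neighbours in this order, were not tested against each other. Activin-A and both factors did not differ by the test (log2FC -0.10, SE 0.133, adjusted p = 0.435), nor did S100a10 between these groups (log2FC 0.015, SE 0.053, adjusted p = 0.929).

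In untreated cells S100a11 and S100a6 rose between 4 and 12 hrs, where 4.90% of all genes were called and 2.33% as higher. S100a11, the annexin A1 partner, had 932, 869.8, 952 and 1051 CPM at 4 hrs and 1129, 1043, 1178 and 1205 CPM at 12 hrs. Only 1 well at 12 hrs lay below the highest at 4 hrs, and the log2FC was 0.26 (SE 0.060, adjusted p = 0.00273). S100a6 had 1402, 1492, 1437 and 1545 CPM at 4 hrs, all below the 1566 to 1809.8 CPM at 12 hrs, with a log2FC of 0.21 (SE 0.060, adjusted p = 0.0220). DESeq2 gave an adjusted p of 0.0526 for S100a6, and its call was lost without replicate 1 or 3 at 4 hrs or replicate 1 or 4 at 12 hrs.

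Anxa1 was lower at 12 hrs without passing the test (log2FC -0.16, SE 0.052, adjusted p = 0.0570), although it passed without replicate 4 at 4 hrs (0.0327) or replicate 3 at 12 hrs (0.0390). S100a13 had a log2FC of 0.34 over this time (SE 0.114, adjusted p = 0.0665, or 0.0421 without replicate 4 at 12 hrs) and Anxa6 of 0.26 (SE 0.102, adjusted p = 0.147), both with wells that do not overlap. Time in culture and harvest cannot be told apart here.

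The wells of a group agreed to different degrees from member to member. The pooled standard deviation (SD) of log2 CPM within groups was 0.233 for Anxa2, which is 7.93 times the 0.0295 that counting error alone gives for its counts. That placed Anxa2 at percentile 98.1 of the 2587 genes of this range of levels, whose median was 0.136. Anxa5 had the smallest spread of the members, 0.0570 or 1.16 times counting error, at percentile 1.2.

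S100a13 and Anxa6, with the fewest counts, had an SD of 0.172 and 0.134, at 1.03 and 0.98 times counting error. Anxa1 had 0.0718, S100a6 0.102, S100a10 0.0864 and S100a11 0.0905, at 2.51, 2.7, 1.97 and 2.0 times counting error. Anxa3 and S100a4 had 0.113 and 0.0818. What moves with the scatter of Anxa2 between wells was not tested.

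**Figure D4:**
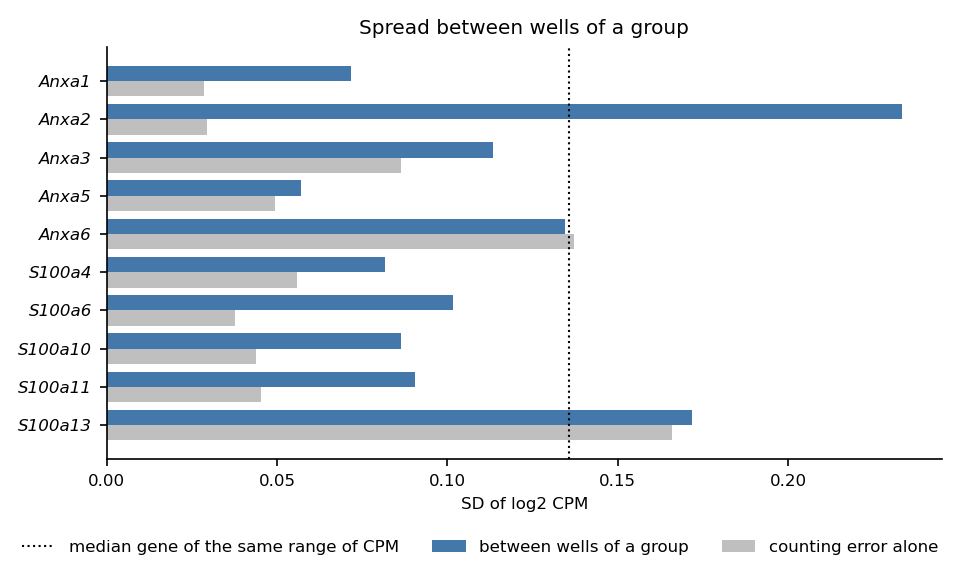
Pooled SD of log2 CPM between wells of a group (blue) and the SD that counting error alone gives (grey) for each member, on an axis from 0, with the median gene of the same range of CPM as a dotted line. Anxa2 exceeds the line and its own counting error by far, whereas the bars of S100a13 and Anxa6 are nearly equal.

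The other genes of both families were taken from lists of family members and partners. With Activin-A alone 1.64% of all genes were called at 4 hrs (0.591% as lower) and 2.41% at 12 hrs (1.16% as lower). Of 7 other annexins 3 were tested, and with Activin-A 1 of them was lower and 0 higher at either time. That gene was Anxa7, a calcium-dependent membrane fusion protein, which fell from 501 ± 9.16 to 379 ± 8.86 CPM at 4 hrs (log2FC -0.40, SE 0.071, adjusted p = 0.000248, or -0.39 and 0.000163 without the well that stood apart) and from 542 ± 16.2 to 452 ± 26.9 CPM at 12 hrs (log2FC -0.26, SE 0.061, adjusted p = 0.00300, SD, n = 4). With both factors against IFN-γ at 4 hrs Anxa7 was lower too (log2FC -0.27, adjusted p = 0.0431), whereas at 12 hrs 0 of the 3 were called. With IFN-γ alone 0 of the 3 were called at either time by edgeR, where 5.06% of all genes were called at 4 hrs and 9.25% at 12 hrs.

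Of 11 other S100 genes 3 were tested at 4 hrs and 2 at 12 hrs. S100a16, another EF-hand sensor of the chromosome 3 family, fell with IFN-γ from 391 ± 14.4 to 319 ± 27.5 CPM at 4 hrs (log2FC -0.29, SE 0.080, adjusted p = 0.0145) and from 447 ± 8.21 to 297 ± 16.6 CPM at 12 hrs (log2FC -0.59, SE 0.068, adjusted p = 4.74e-12, SD, n = 4). S100a1 fell with Activin-A at 12 hrs from 47.0 ± 7.11 to 32 ± 6.07 CPM (log2FC -0.60, SE 0.170, adjusted p = 0.0294). No other S100 gene of the list was called with a single factor at either time. For either factor the shares of all genes called are those given above for the other annexins.

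Of 18 known partners and targets 13 were tested at 12 hrs, and Activin-A raised 2 and lowered 0, where 2.41% of all genes were called, with a median log2FC of 0.043 against -0.0031 over all genes. Those raised were Myh9, the non-muscle myosin heavy chain that S100A4 binds (log2FC 0.30, SE 0.063, adjusted p = 0.000653), and Tpm1, a tropomyosin (log2FC 0.29, SE 0.052, adjusted p = 2.66e-05). IFN-γ raised Cacybp, the calcyclin-binding protein (log2FC 0.32 at 4 hrs, adjusted p = 0.000843, and 0.21 at 12 hrs, adjusted p = 0.0351), and lowered Tpm1 at 12 hrs (log2FC -0.26, adjusted p = 0.000110). On top of IFN-γ, Activin-A raised Tpm1 at 12 hrs (log2FC 0.30, adjusted p = 8.26e-05). At 4 hrs Activin-A lowered 1 of 12 tested, Ezr, the membrane linker ezrin, where 1.64% of all genes were called and 0.591% as lower. The log2FC of Ezr was -0.56 (SE 0.144, adjusted p = 0.0256). Without the well that stood apart it was -0.64 (adjusted p = 0.0131), a fit that was chosen for Anxa7 and Ezr after seeing the data.

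Of 16 other EF-hand proteins 15 were tested, and with Activin-A alone 0 were called at either time by edgeR. With IFN-γ 2 of the 15 rose at each time, and 1 fell at 12 hrs, where 5.06% of all genes were called at 4 hrs and 9.25% at 12 hrs. Those that rose were Rcn1, a reticulocalbin of the endoplasmic reticulum (log2FC 0.78 at 4 hrs and 0.79 at 12 hrs), and Capn1, the large subunit of calpain 1 (log2FC 0.45 and 0.47). The list's median log2FC with IFN-γ at 12 hrs was 0.023, against -0.0098 over all genes tested.

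For the 7 members called with a single factor against untreated wells or with Activin-A on top of IFN-γ, genes with a like pattern were ranked by the root mean square difference over 6 log2FC, those of Activin-A, IFN-γ and both factors against untreated wells at 4 and 12 hrs, among 8847 genes. The 6 values share the untreated wells of each time and include the well that stood apart. Without it, a fit chosen after seeing the data, 13 of the 21 nearest genes were again among the 3 nearest, 3 of 3 for Anxa3 and S100a6, 2 of 3 for Anxa5 and Anxa6, and 1 of 3 for Anxa1, S100a10 and S100a13. Nearest to S100a13 were Akr1c18 (0.115), Angpt2 (0.121) and Pid1 (0.131), and 0 genes came within 0.1. Nearest to Anxa1 were Sfmbt1 (0.0472), Sox10 (0.0491) and Dhcr7 (0.0622), with 42 genes within 0.1. Nearest to Anxa3 were Epb41l4a (0.0769), Rnf4 (0.0846) and Runx1 (0.0872), with 10 genes within 0.1.

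S100a10 had Sympk (0.0536), Fbxo4 (0.0565) and Fth1 (0.0578) nearest and 68 genes within 0.1, and Anxa6 had Gtf3c4 (0.0730), Col4a2 (0.0734) and Marcks (0.0796) and 21 genes. Anxa5 had Apex1 (0.0311), Kctd5 (0.0350) and Dctpp1 (0.0438) and 120 genes, and S100a6, whose changes were small, had Cox8a (0.0181), Nptn (0.0213) and H2afx (0.0247) and 672 genes. The lists describe likeness of these values only.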

How the data were processed

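BRB-seq counts of 32 wells in 8 groups of 4 were used. The authors deposited raw counts per gene, as integers without normalization. The submitters' processing notes name STAR 2.7.10b, featureCounts, DESeq2 1.36.0 and GRCm39. The gene annotation, the use of strand and the handling of molecular identifiers are not given in the sources used here, so duplicates and reads shared by related or overlapping genes stay as counted. Symbols came from GENCODE M21, which matched 12437 of 12451 identifiers. Columns were assigned to wells by their labels.

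After filterByExpr and TMM scaling, edgeR 4.0.16 in R 4.3.3 (glmQLFit and glmQLFTest) was fitted to the 16 wells of either harvest time, or to all 32 where times were compared, with Benjamini-Hochberg adjustment over all genes tested. A prior count of 2 entered log2 CPM. Intervals of depth cover counting error only. Plots and promoter searches used Python 3.11.15. The fits were tested on simulated data, but the outcome is not given here and no result rests on it.

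Alternatives were DESeq2 1.42.0, RLE factors, total counts, no filter, at least 10 counts in every well, the replicate number as a block, all 32 wells or only the groups compared, and each well left out in turn. All 10 members are named. Genes of the family, partner and EF-hand lists could be named where called with Activin-A or IFN-γ against untreated wells, or with Activin-A added to IFN-γ, at either time, and some that were called, and 1 motif searched in promoters, are not reported here. Genes of like pattern are the 3 nearest to each of the 7 members called in at least 1 of these 6 comparisons. Members and lists were chosen with earlier results of these data known.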

Additional observations from a re-analysis of the deposited data

Results flagged for a closer look

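Single wells far from the other wells of their group were looked for in all 80 combinations of a member and a group with Dixon's ratio, which chance exceeds in about 1 in 20 groups of 4, and 5 were found, all at 4 hrs. With Activin-A, Anxa1 had 2203 CPM in replicate 1 (the others 2657 to 2684 CPM), S100a11 had 814 CPM in replicate 1 (the others 962 to 992 CPM), and Anxa3 had 256 CPM in replicate 4 (the others 288 to 293 CPM). With both factors, Anxa3 had 341 CPM in replicate 2 (the others 291 to 293 CPM). In untreated cells, Anxa5 had 831 CPM in replicate 2 (the others 895 to 904 CPM). Of these 5, 2 lie in the well that stood apart from its group over all genes, and what set that well apart was not tested.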

How the results depend on the processing

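The 20 calls of members gave 316 re-tests of a call in an alternative setting. Of these re-tests 290 passed again in the same direction, 26 no longer passed (18 without 1 well and 8 in other settings) and 0 reversed. Calls of the same comparison share a fit, and the settings share wells, so these re-tests are not independent. The largest shift of the median of all genes under any setting was 0.053 on the log2 scale. Activin-A at 4 hrs called 1 member, and 2 without the filter or with all 32 wells in the fit, where Anxa2 joined Anxa1 (adjusted p = 0.00108 and 0.0257), and between 1 and 2 without 1 well. Both factors against IFN-γ at 4 hrs called 0, and 1 with only the groups compared, Anxa1 (adjusted p = 0.0300). Both factors against Activin-A at 4 hrs called 1, and 0 with DESeq2. Both factors against IFN-γ at 12 hrs called 2, 1 with all 32 wells and 3 with total counts alone, where Anxa3 joined (adjusted p = 0.0449), and between 1 and 3 without 1 well. Untreated cells at 12 against 4 hrs called 2, 1 with DESeq2 and 3 with total counts alone, where Anxa1 joined (adjusted p = 0.0388), or with at least 10 counts in every well, where S100a13 did (adjusted p = 0.0453), and between 1 and 3 without 1 well. Without 1 well, Activin-A at 12 hrs called between 5 and 6, IFN-γ at 12 hrs between 3 and 4, and both factors against Activin-A at 12 hrs between 4 and 6. The causes were not tested.

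Replicate numbers did not pair the wells. Same-numbered wells of other groups had a mean correlation of deviations of -5.77e-05 (range -0.0889 to 0.0424), and 7 of 32 wells were most like their own number. In fits with a replicate block, the counts of members called were as without it in all 14 comparisons, for instance 6 for Activin-A at 12 hrs, 3 for IFN-γ at 12 hrs and 2 for both factors against IFN-γ at 12 hrs.

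Depth limits S100a13 and Anxa6 most, whose spread between wells was 1.03 and 0.98 times counting error.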

Other observations

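S100A10 protein is held stable by annexin A2, so the balance of both transcripts was set side by side. The log2 ratio of S100a10 to Anxa2 counts within a well was -1.18 ± 0.138 in untreated wells at 12 hrs and -1.42 ± 0.111 with Activin-A (SD, n = 4), with wells that range from -1.33 to -1.0 and from -1.56 to -1.33. With IFN-γ it was -1.12 ± 0.0874, and with both factors -1.22 ± 0.219. At 4 hrs it was -1.08 ± 0.260 in untreated wells, -0.86 ± 0.387 when Activin-A was added (-0.94 ± 0.432 over the 3 wells left without the one that stood apart), -1.05 ± 0.219 for IFN-γ and -1.35 ± 0.105 for both together. The ratio with Activin-A minus that of untreated wells at 12 hrs was -0.24, with a two-sided exact permutation p of 0.0286, the smallest that 70 divisions of the wells allow, and 0.171 after Benjamini-Hochberg adjustment over 6 comparisons, which does not pass. The other 5 had an exact permutation p between 0.0857 and 0.857. At 4 hrs Activin-A minus untreated was 0.22, and 0.14 without the well that stood apart, a setting chosen after seeing the data (two-sided exact permutation p = 0.257 and 0.514).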
